A study of Mus musculus with 12 samples.

Results

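The large subunit ribosome assembly factors are nucleolar and nucleoplasmic proteins that fold, cut, modify and escort the precursor of the large ribosomal subunit without staying in the finished ribosome. The 34 genes described here were chosen by symbol, for their role in large subunit assembly by a rule that uses no measured values although earlier results of these data were known when the list was made, out of 31091 genes in the deposited P3 data, and each symbol matched a single row. Poly(A)-selected RNA of granule cell progenitors, the proliferating cells that give rise to the granule neurons of the cerebellum, had been sequenced in mice with a Znhit3 conditional knockout (cKO) and in control mice labelled WT. The series holds 12 samples, of which 3 cKO and 3 control libraries of age P3, where P stands for postnatal day, are described here; the 6 of age P6 were not analysed here. The labels give neither the Cre driver nor the deleted part of Znhit3, nor do they tie replicates to animals, so the p-values cover the spread among these libraries alone and that spread may be technical.

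Znhit3 encodes a zinc-finger protein that helps to assemble box C/D small nucleolar ribonucleoproteins, the particles that guide methylation and some cleavages of ribosomal RNA. The large subunit begins as a nucleolar particle on the same primary transcript as the small subunit. Helicases, scaffolds and methyltransferases act on it early, the 5S ribonucleoprotein is docked by a loading pair, and GTPases and AAA ATPases then strip factors off as it moves towards export. Genes of this machinery are strongly used in proliferating cells, and MYC family factors are known activators of many of them.

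The 6 libraries hold between 29119803 and 52961445 counted reads, and each member had between 637 and 11696 reads per library. Znhit3 (chromosome 11, 84801776 to 84807192, minus strand, in the deposited positions) measured 4.03, 4.01 and 4.57 FPKM in cKO and 9.15, 8.62 and 8.58 FPKM in control. It was at 47.8% of control, with a log2 difference of -0.91 ± 0.06 (SE) and a limma adjusted p of 0.00024. An exact permutation test, two-sided, of Znhit3 alone had p = 0.1, which is the floor for 3 libraries against 3. The value counts the whole gene, so exons outside a deleted part contribute. All 10 granule progenitor markers had a mean of at least 1 FPKM, and their sum was 913.1 to 943.5 FPKM in cKO and 1042 to 1133 FPKM in control (3 of 10 called lower, 0 higher). Markers of other cell types moved with genotype, most of them upward. Endothelial markers summed to 221.2 to 237.6 FPKM in cKO and 124.7 to 136.1 FPKM in control (8 of 8 called higher), and pericyte markers to 46.9 to 48.1 FPKM in cKO and 29.5 to 31.0 FPKM in control (5 of 5 higher). GABAergic interneuron markers summed to 100.2 to 108.4 FPKM in cKO and 78.5 to 85.4 FPKM in control (5 of 6 higher, 1 lower). Microglial markers summed to 175.5 to 199.0 FPKM in cKO and 142.4 to 145.3 FPKM in control (5 of 7 higher). Oligodendrocyte lineage markers summed to 125.5 to 137.6 FPKM in cKO and 100.04 to 106.8 FPKM in control (5 of 6 higher), and erythroid markers to 1654 to 1884 FPKM in cKO and 1210 to 1474 FPKM in control (4 of 5 higher). Astroglial markers overlapped between genotypes, at 766.3 to 806.7 FPKM in cKO and 755.5 to 785.8 FPKM in control (3 of 6 higher). Choroid plexus markers were the exception in direction, at 646.1 to 723.1 FPKM in cKO and 1354 to 1440 FPKM in control (of 5 tested, 4 lower and 1 higher). Purkinje cell markers summed to 8.66 to 9.20 FPKM in cKO and 6.79 to 7.73 FPKM in control, with both tested genes higher and Pcp2, Foxp2 and Skor2 under 1 FPKM. No marker of these lists was at 0 in every library. Their part in the members' values was not tested, and in bulk RNA fewer cells of a type and less RNA per cell cannot be told apart.

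All 34 members were measured well above the detection floor, and their levels differed little between genotypes. With limma on log2(FPKM + 1), 4 members rose in cKO, namely Rrs1, Surf6, Rrp1b and Mak16, none fell, and 30 did not pass an adjusted p of 0.05. FPKM is the count of a gene scaled for its length and for the total of its library. The 4 calls, all of them higher, are 11.8% of the members, against 13.4% called higher among the 13538 genes tested. No member was called lower, against 5.74% of those genes, and 19.1% of them were called in either direction. At an unadjusted p under 0.05, 8 members were higher and 2 lower, 10 of 34, where 35.8% of all genes tested passed that p (3225 higher and 1621 lower). Calls, rises and falls below are those of limma unless voom or the authors' deposited table is named. Each call needed nearly all libraries: without cKO replicate 1 only Surf6 was called, and without cKO replicate 2, cKO replicate 3 or any of the 3 control replicates no member was. Calls fell over all 13538 genes tested too. The 1813 called higher became 1487, 859 and 1110 without cKO replicates 1, 2 and 3. They became 1321, 958 and 1056 without control replicates 1, 2 and 3.

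The sizes were small in every case. Differences are given as cKO minus control in log2(FPKM + 1) units and ran between -0.14 for Ddx27 and 0.22 for Surf6, with a median of -0.01 beside 0.03 over all genes tested. The median absolute difference was 0.09 among members and 0.11 among all genes tested, and all 34 members lay within 0.25 of zero, as did 83.3% of all genes tested. The 95% intervals of the members, each taken singly, reached no lower than -0.31 (Ebna1bp2) and no higher than 0.36 (Surf6), so none contained a fall past 1.24-fold or a rise past 1.29-fold on this scale. With voom on reads recovered from the FPKM values, the extreme bounds were -0.30 for Ddx10 and 0.38 for Surf6.

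Summed over the members, expression was 728, 740 and 743 FPKM in the cKO libraries and 751, 760 and 721 FPKM in the control libraries. The groups overlapped in this sum. Control replicate 3 had the lowest value of the 6 libraries for 9 members and cKO replicate 1 also for 9, while control replicate 2 had the highest value for 10. Replicates varied by a median coefficient of variation of 3.8% in cKO (range 0.48% to 11.0%) and 3.8% in control (range 1.0% to 10.0%).

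**Figure D1:**
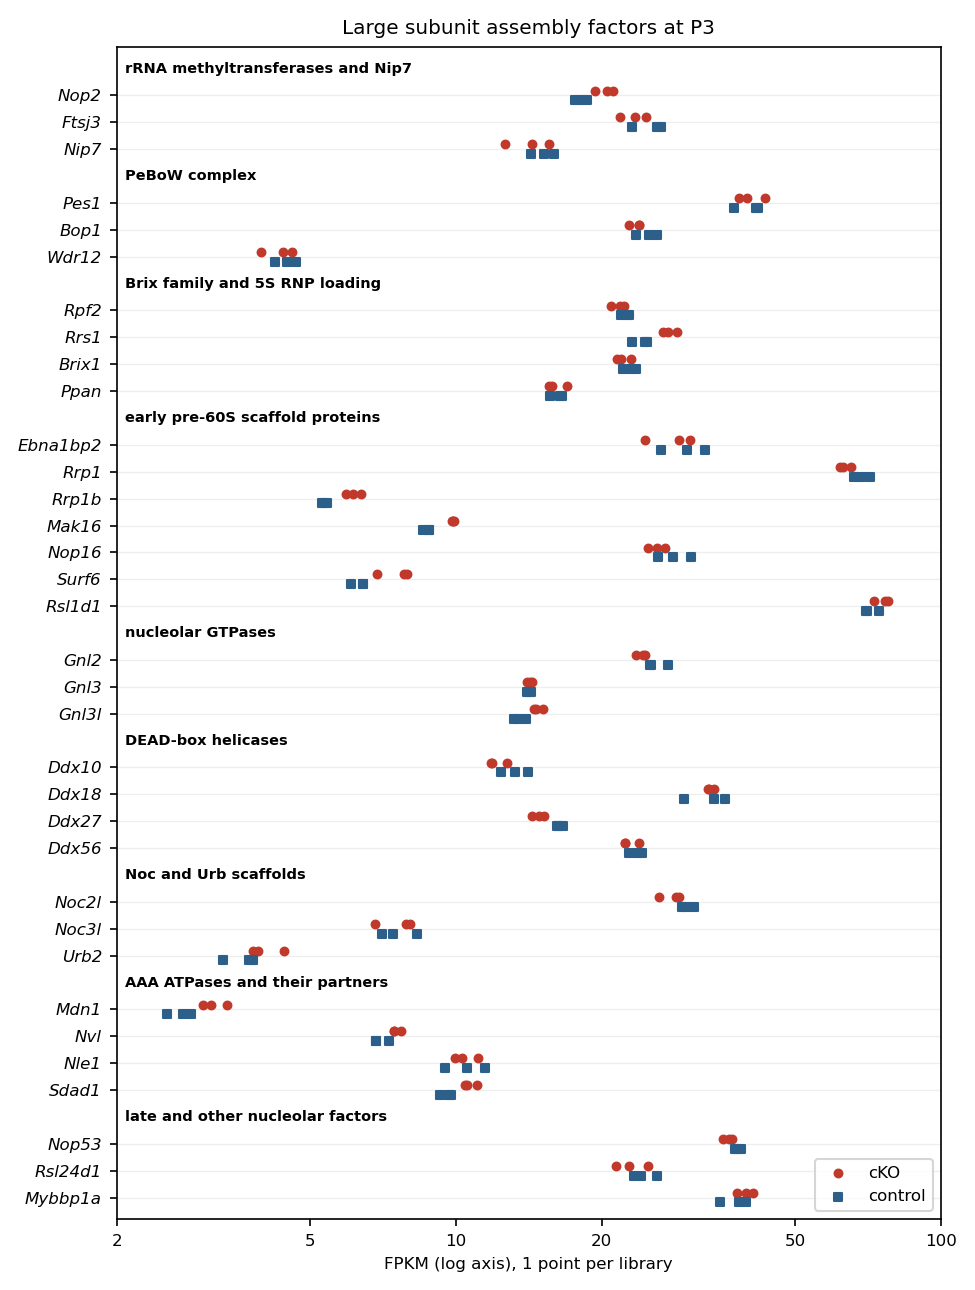
FPKM of the 34 members in each P3 library on a log axis, with cKO libraries as circles and control libraries as squares, grouped by role. The points of the 2 genotypes lie close together for nearly every gene, and levels run from about 3 FPKM for Mdn1 to above 70 FPKM for Rsl1d1.

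The early scaffold proteins held 3 of the 4 members that rose with limma. That is 42.9% of this list of 7, against 13.4% of all genes tested called higher, and the difference was not tested. Of these 3, voom called only Surf6 and the authors' deposited table none. Surf6, a nucleolar RNA-binding protein of early particles, measured 6.88, 7.94 and 7.82 FPKM in cKO and 6.43, 6.45 and 6.08 FPKM in control. Every cKO value was above every control value, and the log2 difference was 0.22 ± 0.06 (SE) with a limma adjusted p of 0.039. Mak16, known from yeast as a factor of the first large subunit particles, measured 9.93, 9.84 and 9.88 FPKM in cKO and 8.82, 8.81 and 8.55 FPKM in control. The cKO values were within 0.1 FPKM of one another and all above control (0.16 ± 0.04, adjusted p of 0.030). Mak16 shares its span with Tti2 on the opposite strand (4.76 FPKM in cKO and 5.07 FPKM in control), and although the library kit marks strand, the counting's use of it is not known here.

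Rrp1b, a paralog of the nucleolar scaffold Rrp1, measured 6.38, 6.15 and 5.95 FPKM in cKO and 5.30, 5.33 and 5.43 FPKM in control (0.17 ± 0.05, adjusted p of 0.039). Rrp1, the far more abundant paralog, measured 62.9, 65.1 and 62.0 FPKM in cKO and 68.4, 71.4 and 66.2 FPKM in control (-0.11 ± 0.04, adjusted p of 0.11). Thus the groups separated in opposite directions for the pair, and limma called only Rrp1b. Voom (adjusted p of 0.019) and the authors' deposited table (adjusted p of 0.0027) call Rrp1 lower instead, and neither calls Rrp1b (adjusted p of 0.058 with voom and 0.10 in the authors' deposited table). The ratio of Rrp1b to Rrp1 was 0.101, 0.0945 and 0.0961 in cKO and 0.0776, 0.0746 and 0.0821 in control, without overlap. This ratio was chosen after its values were seen and was not tested.

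Rsl1d1, a nucleolar protein related to ribosomal protein L1, was the most abundant member at 72.7, 77.7 and 76.7 FPKM in cKO and 74.5, 70.6 and 70.04 FPKM in control. The groups overlapped (0.08 ± 0.05, adjusted p of 0.26). Ebna1bp2, the counterpart of yeast Ebp2, had the widest spread, with 24.5, 28.9 and 30.4 FPKM in cKO and 30.0, 32.7 and 26.5 FPKM in control. Nop16 averaged 26.0 ± 1.02 FPKM in cKO and 28.2 ± 2.28 FPKM in control (SD, n = 3 each), also with overlap.

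Rrs1, which loads the 5S ribonucleoprotein together with Rpf2, was the other member that rose. It measured 27.4, 26.7 and 28.6 FPKM in cKO and 23.1, 24.6 and 24.8 FPKM in control, without overlap (0.18 ± 0.05, adjusted p of 0.031). Neither voom (adjusted p of 0.078) nor the authors' deposited table (adjusted p of 0.13) calls Rrs1. Its partner Rpf2 measured 21.8, 20.9 and 22.2 FPKM in cKO and 22.5, 21.9 and 22.7 FPKM in control. The groups overlapped for Rpf2 (-0.04 ± 0.04, adjusted p of 0.48), so the 2 genes of the loading pair had values on different sides of zero. The Brix domain genes Brix1 and Ppan, whose products act on early particles, differed by -0.04 (Brix1) and -0.01 (Ppan) and were not called. The deposited length of Rrs1 equals its span of 2048 bases, and that of Ppan its span of 4004 bases. Rrs1 overlaps no other gene of the table, nor does Surf6.

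Positions of the 4 genes that rose, as the deposited table gives them, are chromosome 1, 9615633 to 9617680, plus strand, for Rrs1 (ENSMUSG00000061024) and chromosome 2, 26778640 to 26792891, minus strand, for Surf6 (ENSMUSG00000036160). They are chromosome 17, 32255074 to 32281839, plus strand, for Rrp1b (ENSMUSG00000058392) and chromosome 8, 31649491 to 31658792, minus strand, for Mak16 (ENSMUSG00000031578). The members lie on 17 chromosomes, at most 5 of them on 1.

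None of the 3 genes of the PeBoW complex, which is needed for processing of the spacer between the 5.8S and 28S ribosomal RNAs, was called by limma, by voom or in the authors' deposited table. Pes1, its BRCT-domain subunit, measured 43.4, 38.4 and 39.8 FPKM in cKO and 42.0, 41.6 and 37.4 FPKM in control. Bop1 averaged 23.5 ± 0.67 FPKM in cKO and 24.8 ± 1.2 FPKM in control, and the WD-repeat subunit Wdr12 averaged 4.32 ± 0.32 FPKM in cKO and 4.47 ± 0.22 FPKM in control (SD, n = 3 each). All 3 overlapped between genotypes, and the mean level per length of Pes1 was 9.2-fold that of Wdr12. The deposited length of Wdr12 is 11955 bases against 3024 for Pes1, and that length enters FPKM.

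Among the methyltransferases and their partner, Nop2, which places a methyl group on a cytosine of the large ribosomal RNA, measured 21.1, 20.5 and 19.4 FPKM in cKO and 18.2, 17.6 and 18.6 FPKM in control. The groups did not overlap, yet the adjusted p of 0.052 missed the threshold (0.16 ± 0.05). Ftsj3, the counterpart of the yeast ribose methyltransferase Spb1, averaged 23.3 ± 1.4 FPKM in cKO and 25.2 ± 1.8 FPKM in control (SD, n = 3 each). Nip7, which binds pre-ribosomes beside Nop2, averaged 14.2 ± 1.5 FPKM in cKO and 15.1 ± 0.80 FPKM in control (SD, n = 3 each). Both of these overlapped between genotypes. Limma and voom called neither, while the authors' deposited table calls Ftsj3 lower (adjusted p of 0.043).

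The 3 nucleolar GTPases had 2 positive differences and 1 negative, and limma called none. Gnl3 (nucleostemin), known for its high level in dividing stem and progenitor cells, measured 14.3, 14.2 and 14.1 FPKM in cKO and 14.1, 14.3 and 14 FPKM in control. Gnl3 shares its span with Pbrm1 on the opposite strand (19.5 FPKM in cKO and 18.3 FPKM in control). The Gnl3 difference of 0.01 ± 0.04 had a 95% interval of -0.08 to 0.10. Its paralog Gnl3l measured 14.5, 14.7 and 15.1 FPKM in cKO and 13.2, 13.9 and 13.5 FPKM in control, without overlap (0.12 ± 0.04, adjusted p of 0.087). Gnl2, the counterpart of the yeast GTPase Nog2, measured 24.4, 24.5 and 23.5 FPKM in cKO and 25.3, 27.4 and 25.1 FPKM in control. The Gnl2 groups did not overlap and lay the other way from those of Gnl3l (-0.10 ± 0.05, limma adjusted p of 0.18), and Gnl2 is called lower in the authors' deposited table (adjusted p of 0.032).

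The DEAD-box helicases, which remodel RNA within the particle, had 1 positive and 3 negative differences and no call by limma. Ddx27 had the lowest difference of all members, with 14.8, 15.2 and 14.3 FPKM in cKO and 16.6, 16.2 and 16.3 FPKM in control. The groups did not overlap and the limma adjusted p was 0.053 (-0.14 ± 0.04), while voom (adjusted p of 0.014) and the authors' deposited table (adjusted p of 0.0037) call Ddx27 lower. Ddx18, the counterpart of yeast Has1, measured 33.1, 34 and 33.3 FPKM in cKO and 34.1, 36.0 and 29.5 FPKM in control. Here the control libraries spread more widely than the cKO libraries. Ddx56 had a difference of -0.04 ± 0.05, and Ddx10, whose yeast counterpart Dbp4 acts mainly on the small subunit, one of -0.11 ± 0.06.

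Noc2l and Noc3l are scaffolds that accompany the particle from the nucleolus outward. Noc2l measured 26.2, 28.5 and 28.8 FPKM in cKO and 29.3, 30.9 and 30.0 FPKM in control, without overlap (-0.11 ± 0.05, adjusted p of 0.15). Noc3l averaged 7.60 ± 0.68 FPKM in cKO and 7.60 ± 0.64 FPKM in control (SD, n = 3 each). Limma called neither, while voom (adjusted p of 0.033) and the authors' deposited table (adjusted p of 0.014) call Noc2l lower. Urb2, an early scaffold and the member with the second lowest level, measured 3.81, 3.92 and 4.43 FPKM in cKO and 3.82, 3.75 and 3.31 FPKM in control, with a small overlap (0.13 ± 0.07, adjusted p of 0.23).

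The AAA ATPases and their partners act late, when assembly factors are pulled off, and 3 of these 4 genes had cKO values all above control, as did 27.3% of all genes tested, with no call by limma. Mdn1, the giant ATPase known in yeast as Rea1 and the member with the lowest level per length, measured 3.13, 3.38 and 3.02 FPKM in cKO and 2.74, 2.85 and 2.54 FPKM in control (0.17 ± 0.06, limma adjusted p of 0.094). Voom (adjusted p of 0.020) and the authors' deposited table (adjusted p of 0.039) call Mdn1 higher. Nvl, a nuclear ATPase, measured 7.45, 7.45 and 7.71 FPKM in cKO and 7.30, 6.86 and 6.87 FPKM in control (0.09 ± 0.05, adjusted p of 0.19). Sdad1, needed in yeast for export of the subunit, measured 10.4, 10.6 and 11.0 FPKM in cKO and 9.79, 9.27 and 9.69 FPKM in control (0.14 ± 0.05, adjusted p of 0.062). Nle1, the substrate that Mdn1 pulls on, averaged 10.5 ± 0.58 FPKM in cKO and 10.5 ± 0.99 FPKM in control (SD, n = 3 each) and stood apart from the other 3 in that its groups overlapped.

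Nop53, which in yeast recruits the exosome helicase to the particle, measured 37.0, 36.5 and 35.6 FPKM in cKO and 38.1, 38.7 and 37.7 FPKM in control. The cKO values were all lower, by little (-0.07 ± 0.04, limma adjusted p of 0.25). Nop53 is called lower in the authors' deposited table (adjusted p of 0.045) and not by voom. Rsl24d1, a placeholder for ribosomal protein L24, averaged 23.0 ± 1.7 FPKM in cKO and 24.4 ± 1.4 FPKM in control (SD, n = 3 each). Mybbp1a, a nucleolar MYB-binding protein, measured 41.0, 39.6 and 38.0 FPKM in cKO and 38.3, 39.6 and 35.1 FPKM in control. Both overlapped between genotypes. Mybbp1a shares its span with Spns2 on the opposite strand (17.5 FPKM in cKO and 20.4 FPKM in control).

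**Figure D2:**
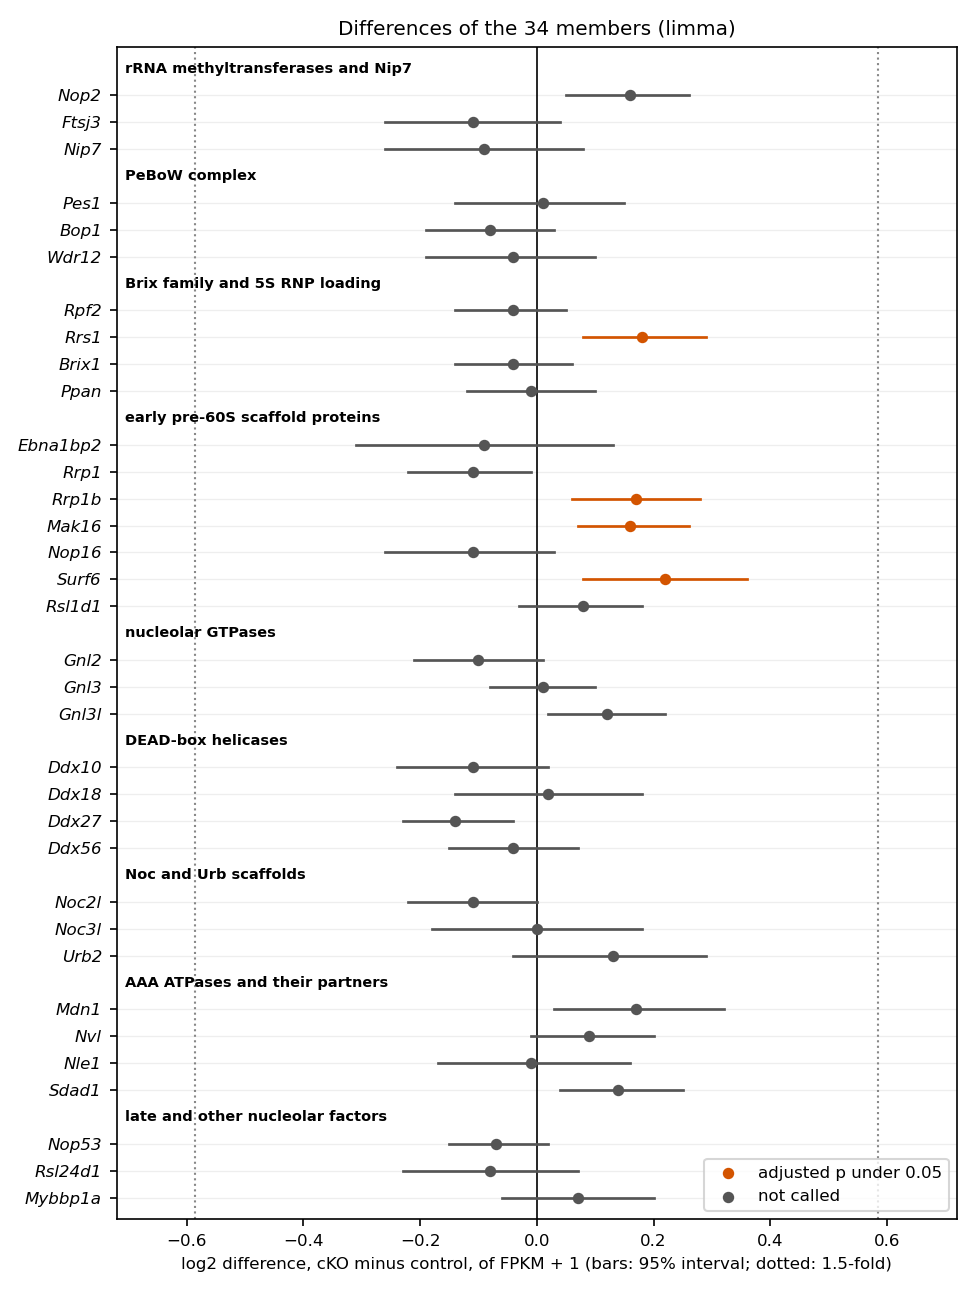
Log2 difference, cKO minus control, of each member with its 95% interval from limma, in orange where the adjusted p was under 0.05. All intervals lie inside the dotted 1.5-fold lines, and Rrs1, Rrp1b, Mak16 and Surf6 are the 4 called.

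In the members as a whole, the 3 cKO values lay all above the 3 control values for 9 genes and all below for 5. These 14 are 41.2% of the members, and the groups did not overlap in 40.5% of all genes tested, so this share is that of the table at large. Over all genes tested, the cKO values lay all above control for 27.3% and all below for 13.2%.

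Which members were called depended on the method. The authors' deposited table calls 7 members at an adjusted p under 0.05, with Mdn1 higher and Rrp1, Ddx27, Noc2l, Gnl2, Ftsj3 and Nop53 lower, or 20.6% of members against 25.5% of the genes tested here in that table. For these 7, in the same order, the authors' deposited table has log2 fold changes of 0.18, -0.17, -0.20, -0.17, -0.16, -0.17 and -0.12. Voom on recovered reads called Surf6 and Mdn1 higher and Rrp1, Ddx27 and Noc2l lower, 5 members, against 26.4% of all genes tested. No member was called by both limma and the authors' deposited table. Surf6 was called by both limma and voom, and Ddx27, Mdn1, Noc2l and Rrp1 by both voom and the authors' deposited table.

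The estimates themselves were mostly alike in sign, while the limma estimate was the highest of the 3 for most members. The sign was the same in all 3 sources for 31 members, 12 positive and 19 negative, and Pes1, Gnl3 and Ddx18, all near zero, were the exceptions. The median over members was -0.01 with limma, -0.04 with voom and -0.06 in the authors' deposited table, beside 0.03, 0.00 and -0.02 over all genes tested. The balance of calls moved with the scaling in the whole table too. Limma called 1813 genes higher and 777 lower, TPM scaling 2448 and 549, quantile normalization 1083 and 823, voom 1933 and 1635, and limma with the length trend removed 1179 and 1031. Among members the counts with TPM scaling were 7 higher and 0 lower.

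**Figure D3:**
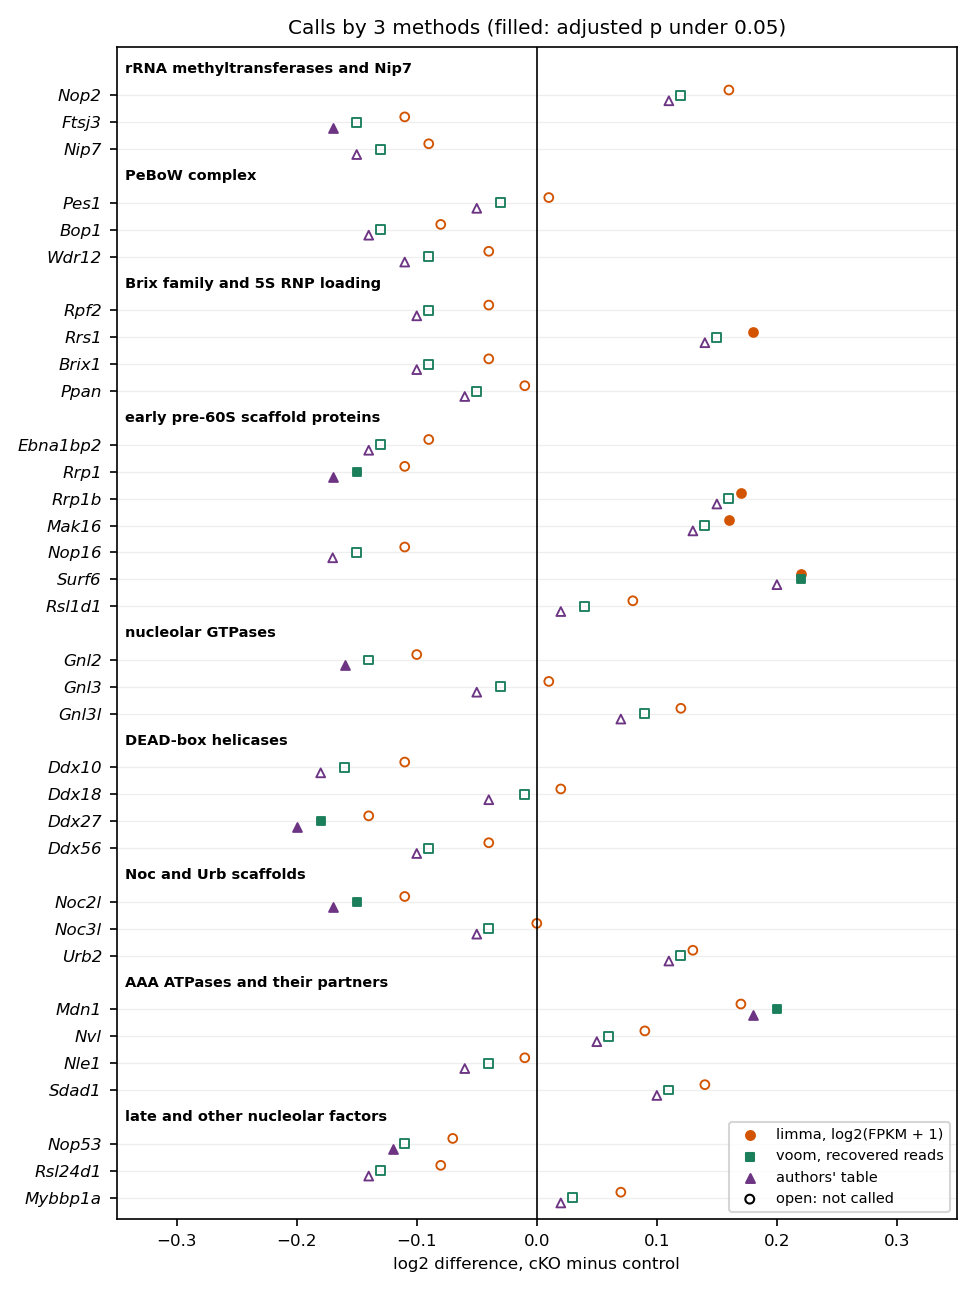
Log2 difference, cKO minus control, of each member by limma on log2(FPKM + 1), by voom on recovered reads and in the authors' deposited table, filled where the adjusted p was under 0.05. The limma estimate is the highest for most genes, and the filled symbols belong to 11 of the 34 members.

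The members differed far more from each other than between genotypes. Ordered by mean FPKM over the 6 libraries, Rsl1d1 (73.7), Rrp1 (66.0), Pes1 (40.4) and Mybbp1a (38.6) led, and Wdr12 (4.39), Urb2 (3.84) and Mdn1 (2.94) came last, a 25-fold range. Of the 33 neighbouring pairs in this order only 5 had ranges over the libraries that did not overlap, the breaks being Rrp1 to Pes1, Nop2 to Ppan, Ddx10 to Nle1, Mak16 to Noc3l and Rrp1b to Wdr12. The median member stood at the 79.6th percentile of tested genes by FPKM, and 28 of 34 stood above the median tested gene.

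Differences tended to be higher in members of lower level. Across the 34 members the difference had a Spearman rho of -0.42 with mean FPKM and of 0.22 with deposited gene length, against -0.27 and 0.26 across all 13538 genes tested. Length and level were themselves related among members (rho of -0.51), all points share the same 6 libraries, and genes are not independent replicates. The 17 longest members (3683 to 21836 bases) had 9 positive and 8 negative differences, and the 17 shortest (1716 to 3553 bases) had 6 and 11. With the trend on gene length taken out, the rho with length was -0.08 and that with level -0.26, and limma called Mak16 and Rrs1 higher and Ddx27 lower.

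**Figure D4:**
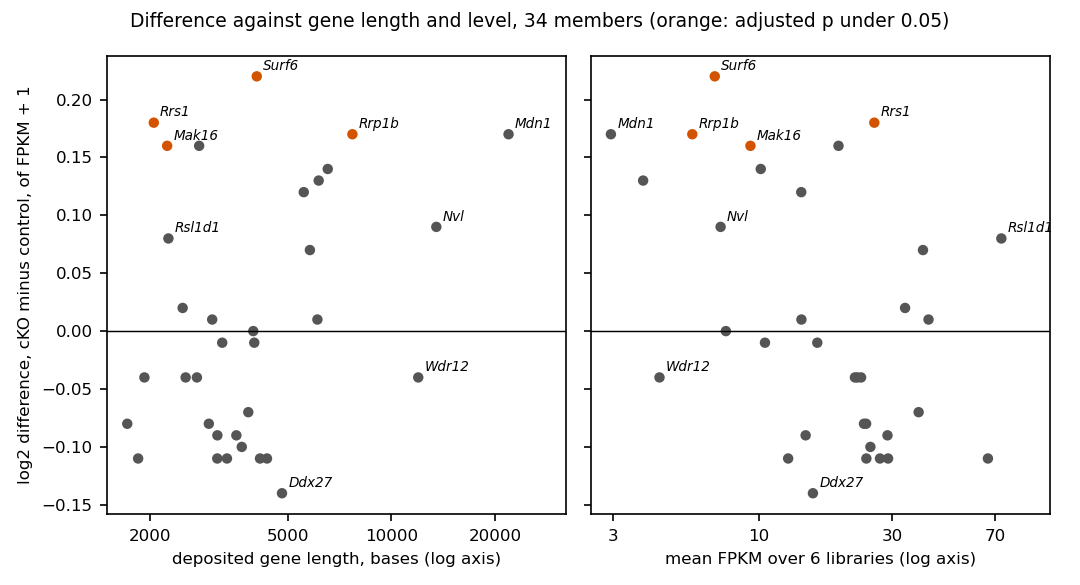
Log2 difference, cKO minus control, of the 34 members against deposited gene length (left) and mean FPKM over 6 libraries (right), both on log axes, with called members in orange. The members above 0.1 lie below 20 FPKM except for Rrs1, and the negative differences lie above 12 FPKM except for Wdr12, Noc3l and Nle1.

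Promoter windows are shown because the E-box CACGTG is the site that MYC family factors bind and CCGGAAGT the core that ETS family factors bind. RefSeq promoters (GRCm38.p6, 250 bases before to 50 bases after the start) matched 28 of the 34 members; Bop1, Gnl2, Gnl3l, Mak16, Nop53 and Rrs1 were not matched. Searched on both strands, CACGTG stood in the promoters of 7 of the 28 members with a promoter, against 11.6% of 9892 tested genes with a promoter and 7.15% of all 32851 promoters. The E-box windows, at most 30 bases on the gene's strand with the motif in capitals, are as follows.
Nop2 (chr6:125131811-125131840, plus strand): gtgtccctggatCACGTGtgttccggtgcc
Pes1 (chr11:3963965-3963994, plus strand): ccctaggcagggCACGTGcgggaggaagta
Rpf2 (chr10:40246988-40247017, minus strand): aagtaatcggtaCACGTGcattcgctaagg
Mdn1 (chr4:32657145-32657168, plus strand): gaattccttcacCACGTGtgtgtc
Nle1 (chr11:82908355-82908384, minus strand): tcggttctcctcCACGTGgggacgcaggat
Sdad1 (chr5:92309986-92310015, minus strand): agcggcgtgtccCACGTGccgtttccggtt
Mybbp1a (chr11:72441355-72441376, plus strand): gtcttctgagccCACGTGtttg

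The 7 members with an E-box had a median difference of 0.07 (range -0.04 to 0.17), and limma called none while voom and the authors' deposited table call Mdn1 higher. The 21 matched members without it had a median of -0.04 (range -0.14 to 0.22), and limma called 2. Mak16 and Rrs1, which limma also called, had no matched promoter and are in neither set. The contrast between the sets was not tested. In Nop2 the motif began 60 bases before the start. In Pes1, Mdn1, Nle1, Sdad1 and Mybbp1a it lay within the first 50 transcribed bases, and in Rpf2 it lay between 2 annotated starts.

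The ETS core CCGGAAGT or its reverse complement ACTTCCGG stood in 9 of the 28 (32.1%), against 9.12% of tested genes and 3.89% of all promoters, and Rpf2 held both motifs without overlap. Windows are shown for the 4 of these 9 whose cKO and control values did not overlap.
Ddx27 (chr2:167015300-167015329, plus strand): actcgctacgtCCGGAAGTggctgcttctt
Noc2l (chr4:156236002-156236031, plus strand): gcattctgggcCCGGAAGTgcggcgcacgc
Nvl (chr1:181144198-181144227, minus strand): ttgcgggggggACTTCCGGtgctagggacc
Surf6 (chr2:26902878-26902907, minus strand): gcgcataagatACTTCCGGcggggtcacgc

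Ddx27 and Noc2l had lower values in cKO and Nvl and Surf6 higher values. These genes were picked by their measured values, so their balance does not describe all members with the core. Of all 9 members with the core, 2 had a positive difference, and the median was -0.04 (range -0.14 to 0.22). Of the 19 matched members without the core, 10 had a positive difference, and the median was 0.01 (range -0.11 to 0.17). The contrast between members with and without the core was not tested. Of the other motifs searched on both strands, GGGCGG stood in 67.9% of the matched members and 70.1% of tested genes, and TATAAA in 10.7% of the matched members and 8.09% of tested genes. A letter match describes the sequence and is not evidence of binding.

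A few members host small nucleolar RNAs, the class that Znhit3 serves. In GENCODE M21 (GRCm38), Gnl3 contains 3 such genes on its strand, Ppan 2 and Nop53 1, or 8.82% of members against 1.91% of 13333 tested genes in that annotation. The differences of these hosts were 0.01 (Gnl3), -0.01 (Ppan) and -0.07 (Nop53). Limma and voom called none of the 3, and the authors' deposited table calls Nop53 lower (adjusted p of 0.045). Snord23, inside Nop53, has a row of its own with 4 to 19 reads per library, too few to describe. Pseudogene transcripts matched 10 members at 90% identity or more over at least 300 bases, and could take reads from them. Of the 17 matches, 10 have a row in the table, each averaging at most 0.308 FPKM in either genotype. For Mybbp1a, Nip7, Nvl, Rpf2 and Wdr12 no copy has a row, so none was measured. The ceiling was set by Gm6457, a copy of Rsl24d1, and the 3 copies of Rrs1 were at or below 0.153 FPKM.

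The rest of the large subunit pathway also held few calls with limma. Of 47 further factors listed, 45 were in the table and 44 tested; 1 rose, 2 fell and 41 did not pass, or 6.82% against 19.1% of all genes tested, and the median difference was -0.01. Nol9, a kinase acting on the spacer RNA, rose and measured 9.82, 10.2 and 10.7 FPKM in cKO and 8.45, 9.04 and 8.73 FPKM in control (0.21 ± 0.05, adjusted p of 0.025). The helicase Ddx31 fell and measured 6.33, 6.30 and 6.45 FPKM in cKO and 7.38, 8.06 and 7.41 FPKM in control (-0.23 ± 0.05, adjusted p of 0.019). Rpl11, a ribosomal protein carried by the 5S particle that Rpf2 and Rrs1 load, fell and averaged 148 ± 4.9 FPKM in cKO and 166 ± 1.3 FPKM in control (SD, n = 3 each; -0.17 ± 0.04, adjusted p of 0.032). Nol9 was not called without cKO replicate 2 or 3 or without control replicate 1 or 3, Ddx31 without cKO replicate 2 or control replicate 2, and Rpl11 without any single library other than cKO replicate 1.

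Values of these further factors lay all below control for 12 of the 44 genes and all above for 2. Over all genes tested, 13.2% lay all below control and 27.3% all above. Both directions together made 31.8% of these factors, against 40.5% of all genes tested. Voom called 1 higher and 7 lower of the 44, against 14.3% higher and 12.1% lower over all genes tested. At an adjusted p under 0.05 the authors' deposited table has 1 of them higher and 9 lower, against 12.1% higher and 13.4% lower over all genes tested. In the small subunit processome, the machinery of the other subunit, 1 of 45 genes rose (Utp20) and 1 fell (Emg1) with limma. These are 4.44% of the 45, against 19.1% of all genes tested, and the median difference was 0.04. Voom and the authors' deposited table each have 1 of the 45 higher and 7 lower, beside the shares over all genes given above. Utp20 averaged 4.81 ± 0.19 FPKM in cKO and 3.92 ± 0.18 FPKM in control (SD, n = 3 each), and Emg1 22.4 ± 0.41 FPKM in cKO and 26.2 ± 0.78 FPKM in control (SD, n = 3 each). The call of Utp20, at an adjusted p of 0.022 with limma, was not kept without cKO replicate 2, cKO replicate 3 or control replicate 3, while Emg1 (limma adjusted p of 0.012) stayed called whichever library was left out. The difference between the members and either list was not tested.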

How the data were processed

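The authors deposited 1 P3 table of FPKM values per library, with a gene length in bases, per the file headers. It also holds the authors' comparison: a mean signal, a log2 fold change, its standard error and a test statistic (scores here), and p-values with adjusted p-values, per the file headers. With no role given, mm10 and the tools cutadapt 1.9, HISAT2 2.2.1, StringTie 2.1.6, DESeq2 and edgeR stand in the submitters' processing notes. The annotation used is not given in the sources used here. Start and end matched GENCODE M21 for 614 of 29560 shared identifiers, and the build of the deposited positions is therefore left unnamed. Columns with a ZM prefix were taken as cKO, the only P3 group of the labels besides WT.

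FPKM times length gave whole reads within 0.02 for every value. Genes averaging 1 FPKM or more over the 6 libraries were tested with limma 3.58.1 (R 4.3.3, intensity trend, no covariates) on log2(FPKM + 1), which understates changes of low genes, with Benjamini-Hochberg adjustment over all tested genes. All 34 members passed that filter. The floor of 3 reads equals 0.0566 to 0.103 FPKM for a gene of 1 kb, for counting error only. Fits were tested on simulated data. Replicates differed by more than counting noise (chi-square per degree of freedom 4.38 to 9.71), so none was counted as a duplicate.

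Alternatives covered the pseudocount, the filter, scaling, weights, trend, block, voom, length and each library left out. Members and lists were chosen with earlier results of these data known. Named genes are Znhit3, all members, and up to 3 called genes per direction and list. The motifs, the paralog ratio, the neighbours in span and the pseudogene search were chosen after values were seen.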

Additional observations from a re-analysis of the deposited data

How the results depend on the processing

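Znhit3 kept its direction and its call in all 17 alternatives. The 4 members called higher became 1 with no filter on low values and with quantile normalization, 7 with TPM scaling and with array weights, 2 with voom and with the length trend removed, and 0 to 1 on leaving out each library. The 0 called lower became 1 with upper quartile scaling and with the length trend removed and 3 with voom. Over all genes tested, 1813 of 13538 were called higher in the main fit and 887 of 31091 with no filter. Quantile normalization called 1083 higher, TPM scaling 2448, array weights 2548, voom 1933 and the length trend removed 1179. Genes called lower were 777 in the main fit, 842 with upper quartile scaling, 1031 with the length trend removed and 1635 with voom. For the other large subunit factors, 1 called higher became 0 with no filter, quantile normalization and the length trend removed, 2 with TPM scaling and array weights, and 0 to 1 on leaving out each library. Their 2 called lower became 1 with no filter and TPM scaling, 4 with array weights and the length trend removed, 7 with voom, and 0 to 3 on leaving out each library. The median difference of members, -0.007, became 0.033 with TPM scaling, -0.045 with voom, and -0.036 to 0.002 on leaving out each library. The cause of these moves was not tested, except that leaving out a library leaves fewer samples. No called member changed sign under any of the 17 alternatives.

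Same-numbered cKO and control libraries were no more alike than others. Correlations of their deviations were -0.024, 0.036 and -0.097, and those of different-numbered libraries ran from -0.08 to 0.109. The labels state no pairing, and these values cannot exclude one. With the replicate block, 0 members were called higher, 0 other large subunit factors higher and 0 lower, and over all genes 1073 were called higher and 469 lower, against 1813 and 777 without it. All members passed 1 FPKM, and 31 of 34 passed 5 FPKM. Mdn1, Urb2 and Wdr12 were below that level.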
